A study of Mus musculus with 38 samples.

Results

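The imprinted loci of H19, Igf2, Kcnq1ot1, Meg3 and Peg3 were examined in peak lists from chromatin immunoprecipitation followed by sequencing (ChIP-seq). A peak belonged to them when its centre lay inside the mm10 gene body or no more than 50 kb beyond either end, and no peak was counted again for a second gene. The windows of H19 and Igf2 share 27.4 kb, so these 2 genes were treated as 1 locus, which leaves 4 loci covering 641.6 kb, or 0.0235% of the named chromosomes. Of 359759 peaks in 17 lists, 104 were members: 51 at H19 and Igf2, 27 at Kcnq1ot1, 22 at Meg3 and 4 at Peg3. Merging members that overlapped gave 29 separate sites.

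The cells were Cas9-LP, a mouse lymphoid progenitor (LP) line made from fetal liver progenitors that are deficient for Ebf1 and carry Cas9 at Rosa26, a background that every group shares. Per the labels, LP cells were cultured on OP9 stroma, which gives no Notch ligand, and Phase 1 cells on OP9-DLL4, which presents the ligand DLL4. RUNX1, CTCF, the Mediator subunit Med12 and the acetyltransferase p300 were each mapped in LP and Phase 1 cells, and the Notch1 intracellular domain (Notch1-IC) also in Phase 2, a later stage on the ligand. Further lists came from cells given retroviral guide RNAs: RUNX1 in LP cells with a control guide (sgCont) or guides against Ctcf (sgCTCF), RUNX1 in Phase 1 cells with sgCont or guides against Med12 (sgMed12), and Med12 in Phase 1 cells with sgCont or guides against Cbfb (sgCbfb), the partner that RUNX proteins need to bind DNA. The guide lists were made from few cells and are described by the study as noisier, and the guides were retroviral pools and not cloned lines. Each list combines 2 replicates, so it holds no replicate error, and the 95% Wilson intervals below cover counting error only. The lists hold no read totals, and read depth was not used here. Whether a peak comes from the maternal or the paternal chromosome cannot be told from these lists, and the peak lists hold no expression levels, so the cell type was not checked against markers here.

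Imprinted genes are expressed from the copy inherited from one parent and not from the other, and the choice is held by differentially methylated control regions whose CpG methylation was set in egg or sperm. At H19, which makes a long noncoding RNA, the control region upstream of the gene binds CTCF on the unmethylated maternal copy, where CTCF insulates the growth factor gene Igf2 from enhancers beyond H19. KvDMR1 is the promoter of the antisense RNA Kcnq1ot1 inside Kcnq1, the IG-DMR lies upstream of the noncoding RNA gene Meg3, and further methylated regions cover the starts of Meg3 and of Peg3, which encodes a zinc finger protein. These regions were taken here as fixed windows around each gene's start (H19 from -5 to -1 kb, KvDMR1 from -1 to 3 kb, IG-DMR from -16 to -10 kb, Meg3-DMR from -2 to 5 kb and Peg3-DMR from -1 to 4 kb), positive in the direction of transcription.

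CTCF recognises a long, partly fixed DNA word, so the words under the peaks are shown first. A 20-base CTCF matrix was learned from the LP CTCF peaks outside the loci, and each control region was scanned with it on both strands, with the score that 10% of windows flanking CTCF peaks reach as the minimum. Capitals mark the 12 core positions of the matrix, and every sequence is read 5′ to 3′ on the strand named. The H19 control region held 4 matches with 2 or more CpG, all on the minus strand, the strand from which H19 is transcribed, and these 4 are printed, chosen by their number of CpG. The other 4 matches of the region, with 0 or 1 CpG, are not printed, and 1 of them, on the plus strand with no CpG and a matrix score of 9.18, also lay under the CTCF peak at -2.6 kb in both stages.
H19 site at -3.9 kb, chr7:142582032-142582051, minus strand: gttgCCGCGTGGTGGCagca
H19 site at -3.7 kb, chr7:142581788-142581807, minus strand: gttgCCGCACGGCGGCagtg
H19 site at -2.6 kb, chr7:142580762-142580781, minus strand: gctaCCGCGCGGTGGCagca
H19 site at -2.2 kb, chr7:142580307-142580326, minus strand: gatgCCGCGTGGTGGCagta

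From the first capital on, these 4 sites share the letters CCGCNNGGNGGCAG, where N marks a position at which they differ, and letters shared before the first capital were left out of the string. Because the string was read from the sites themselves, its 4 copies here are no finding. A string with this many fixed letters is rare in any sequence, so the counts elsewhere are a description and not a trait of this region. Within 200 bp of the centre, on either strand, it occurred in 120 of the 45361 LP CTCF peaks outside the loci (0.265%) and in 8 of 90754 flanking stretches of the same length 2 kb away. The other control regions held no copy.

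The CTCF peaks of the other control regions lay on different words. In the Meg3-DMR the peak covers the first sequence below, and the second, a higher-scoring match with no peak, is printed for contrast. In the Peg3-DMR 3 related matches on the minus strand, the strand of Peg3, lay 122 and 138 bp apart and differed from each other at 2 of 20 bases in every pair. The match at 3.1 kb lay under the Phase 1 CTCF peak only, and those at 3.0 and 2.9 kb under the peaks of both stages. Unprinted matches with matrix scores of 9.25 and 10.0 also lay under the peaks of both stages.
Meg3-DMR match at 2.0 kb, under the CTCF peak, chr12:109543036-109543055, minus strand: gagaCCGCTAGGGGGCgcgc
Meg3-DMR match at 1.2 kb, no CTCF peak, chr12:109542166-109542185, plus strand: atggCCGCAAGAGGGCgctg
Peg3-DMR match at 3.1 kb, chr7:6727279-6727298, minus strand: ttggCCACAAGGGGGTgtct
Peg3-DMR match at 3.0 kb, chr7:6727401-6727420, minus strand: ttggCCACAAGGGGGCatct
Peg3-DMR match at 2.9 kb, chr7:6727539-6727558, minus strand: ttggTCACAAGGGGGCgtct

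CTCF occupied the control regions of H19, Meg3 and Peg3 in both stages, 3 of 5 regions. It had no peak in KvDMR1 or the IG-DMR in either stage. With a score of at least 30, 2 regions kept CTCF in each stage. Windows like these were not counted around other gene starts for any factor, so these counts are a description and not a trait of control regions. The H19 control region held exactly 2 CTCF peaks in LP cells and 2 in Phase 1 cells, and no peak of any other factor or guide list. The peak at -3.7 kb had a score of 172.5 in LP cells, within the top 17.3% of that list, and of 188.6 in Phase 1 cells, within the top 16.3%. The peak at -2.6 kb scored 116.9 in LP cells (top 31.4%) and 152.6 in Phase 1 cells (top 23.6%). The score is the authors' normalized peak score, whose scale was not stated in the file headers, so it was read only as a place within its own list.

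**Figure D1:**
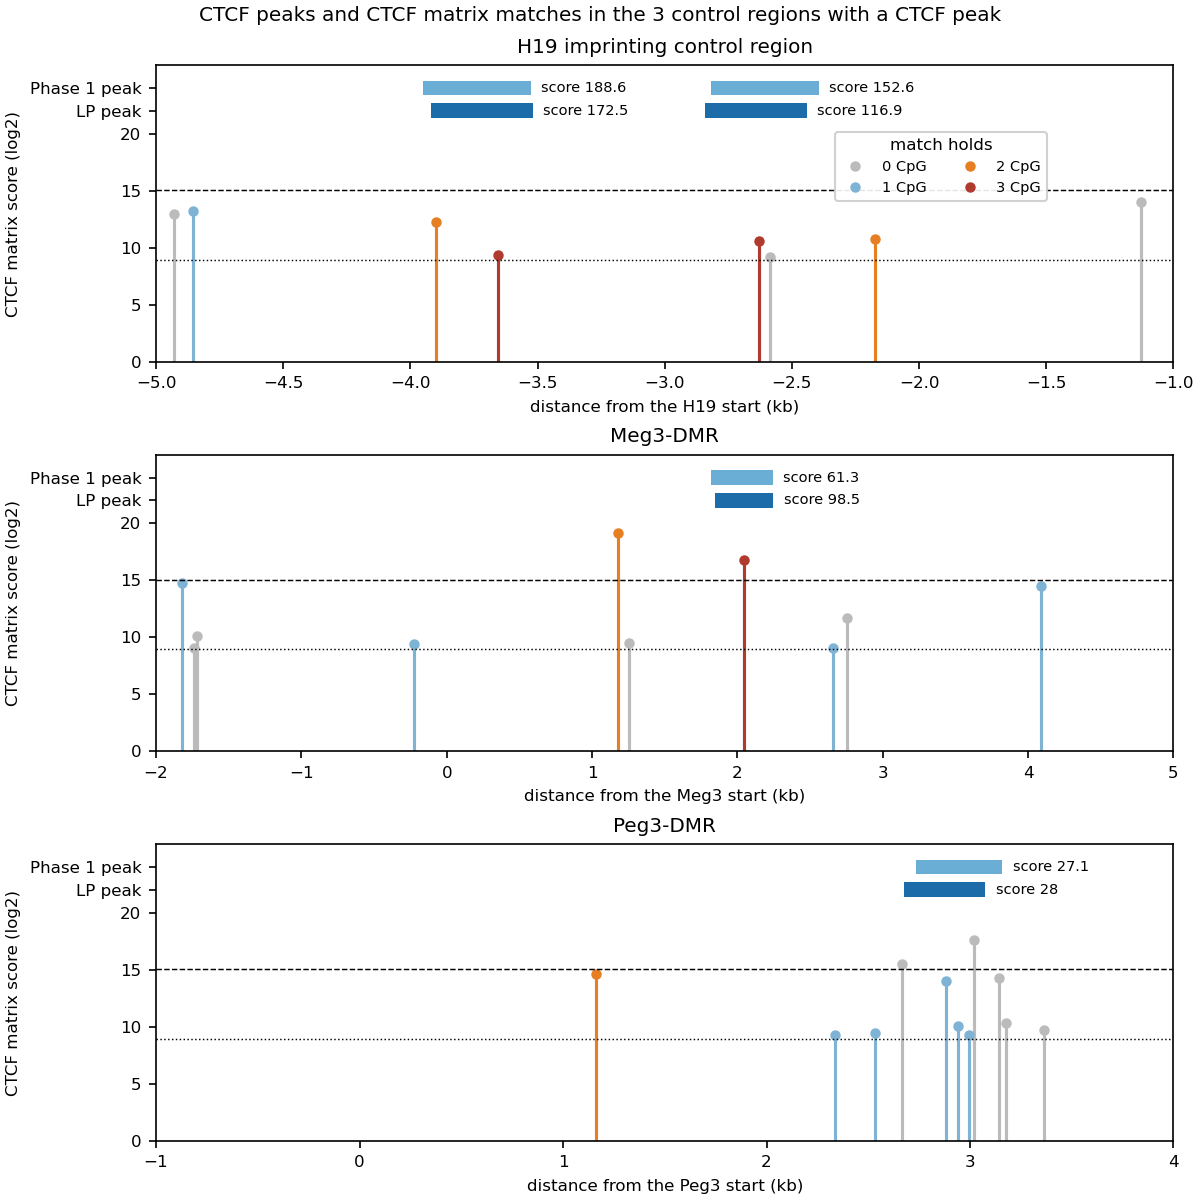
CTCF peaks (bars, with their scores) and CTCF matrix matches (stems, height is the log2 matrix score, colour is the number of CpG in the match) against distance from the gene start in kb, for the 3 control regions with a CTCF peak; the dashed and dotted lines are the scores that 1% and 10% of flanking windows reach. Both H19 peaks cover matches with 2 or more CpG, the one at -2.6 kb also a match with none, and all of these stay under the dashed line, while the Meg3-DMR peak sits on a match of 16.8 and the Peg3-DMR peaks on a cluster of matches.

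The interval of the H19 peak at -3.7 kb contained 2 of the 4 printed sites, whose starts are 244 bp apart, and the peak at -2.6 kb contained 1. The site at -2.2 kb lay outside both peak intervals in both stages. All 4 scored low on the matrix. Their log2 matrix scores were 12.3, 9.34, 10.6 and 10.8 in the order printed, which 20.3%, 10.3%, 13.8% and 14.4% of LP CTCF peaks fall below. They held 2, 3, 3 and 2 CpG, the base pair step that carries methylation, and since these numbers chose the sites they are a description.

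At the Meg3-DMR the CTCF peak lay 2.0 kb into Meg3, within a GENCODE exon. Its score was 98.5 in LP cells (top 37.1%) and 61.3 in Phase 1 cells (top 53.6%). A p300 peak overlapped it in LP cells with a score of 29.6 (top 72.2%) and none did in Phase 1 cells, and a Med12 peak with a score of 16.4 (top 94.4%) was listed there in sgCbfb cells but not in sgCont cells. The match under the CTCF peak holds 3 CpG and scores 16.8 on the matrix, and the match at 1.2 kb scores 19.2 yet had no CTCF peak in either stage.

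The Peg3-DMR peak lay in the first intron of Peg3, 2.9 kb from its start. Its score was 28.0 in LP cells (top 78.3%) and 27.1 in Phase 1 cells (top 81.3%), low in both lists. The second CTCF site of the Peg3 window, in an intron of the neighbouring imprinted gene Zim2, scored 44.4 in LP cells (top 62.6%) and 48.7 in Phase 1 cells (top 61.0%). Its best matrix score within 100 bp of the centre was 3.00, which only 0.758% of other LP CTCF peaks fall below. No other factor had a peak anywhere in the Peg3 window in any list. For reference, 8.10% of 30751 genes had CTCF in both stages and no RUNX1, Med12 or p300 peak of either stage within 50 kb of their start, and 23.7% had no RUNX1, Med12 or p300 peak whatever CTCF did.

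KvDMR1 and the IG-DMR showed the opposite makeup, with RUNX1, Med12 and p300 and no CTCF. At the Kcnq1ot1 start the RUNX1 peak scored 59.7 in LP cells (top 40.6%) and 69.5 in Phase 1 cells (top 32.7%). Med12 at the same place scored 52.0 (top 47.3%) and then 38.3 (top 52.1%), and p300 scored 69.4 (top 41.4%) and then 78.5 (top 29.8%). All 3 factors were thus near the middle of their lists or somewhat above it. Med12 was listed there in both guide lists, at 27.5 in sgCont (top 64.8%) and 34 in sgCbfb cells (top 53.6%). In the IG-DMR RUNX1 and p300 each had 2 peaks in both stages, at about -11.5 and -10.5 kb from the Meg3 start.

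The upstream IG-DMR site, at -11.5 kb, scored 28.4 for RUNX1 in LP cells (top 71.9%) and 63.9 in Phase 1 cells (top 35.7%), and 56.1 (top 48.9%) and then 73.4 (top 32.1%) for p300. Its Med12 peak scored 17 in LP cells (top 95.1%) and 37.9 in Phase 1 cells (top 52.5%), so all 3 stood higher in the Phase 1 list. The downstream site, at -10.5 kb, scored 25.4 (top 76.7%) and then 38.6 (top 55.2%) for RUNX1 and 39.9 (top 60.8%) and then 33.9 (top 61.4%) for p300, with a Med12 peak of 15.3 (top 98.5%) in Phase 1 cells and none in LP cells. A Med12 peak of 23.9 (top 72.7%) at -15.2 kb appeared in the sgCbfb list and in no other. The scan found 1 CTCF matrix match in KvDMR1 and 2 in the IG-DMR, against 8 in the H19 control region, 10 in the Meg3-DMR and 11 in the Peg3-DMR. Those of KvDMR1 and the IG-DMR were under the score that 1% of flanking windows reach, as were all 8 of the H19 control region. The regions differ in length, from 4 kb for H19 and KvDMR1 to 7 kb for the Meg3-DMR. CpG were dense in every region, from 22.5 per kb at H19 to 29.6 per kb in the Peg3-DMR, against 12 per kb in windows that flank CTCF peaks.

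**Figure D2:**
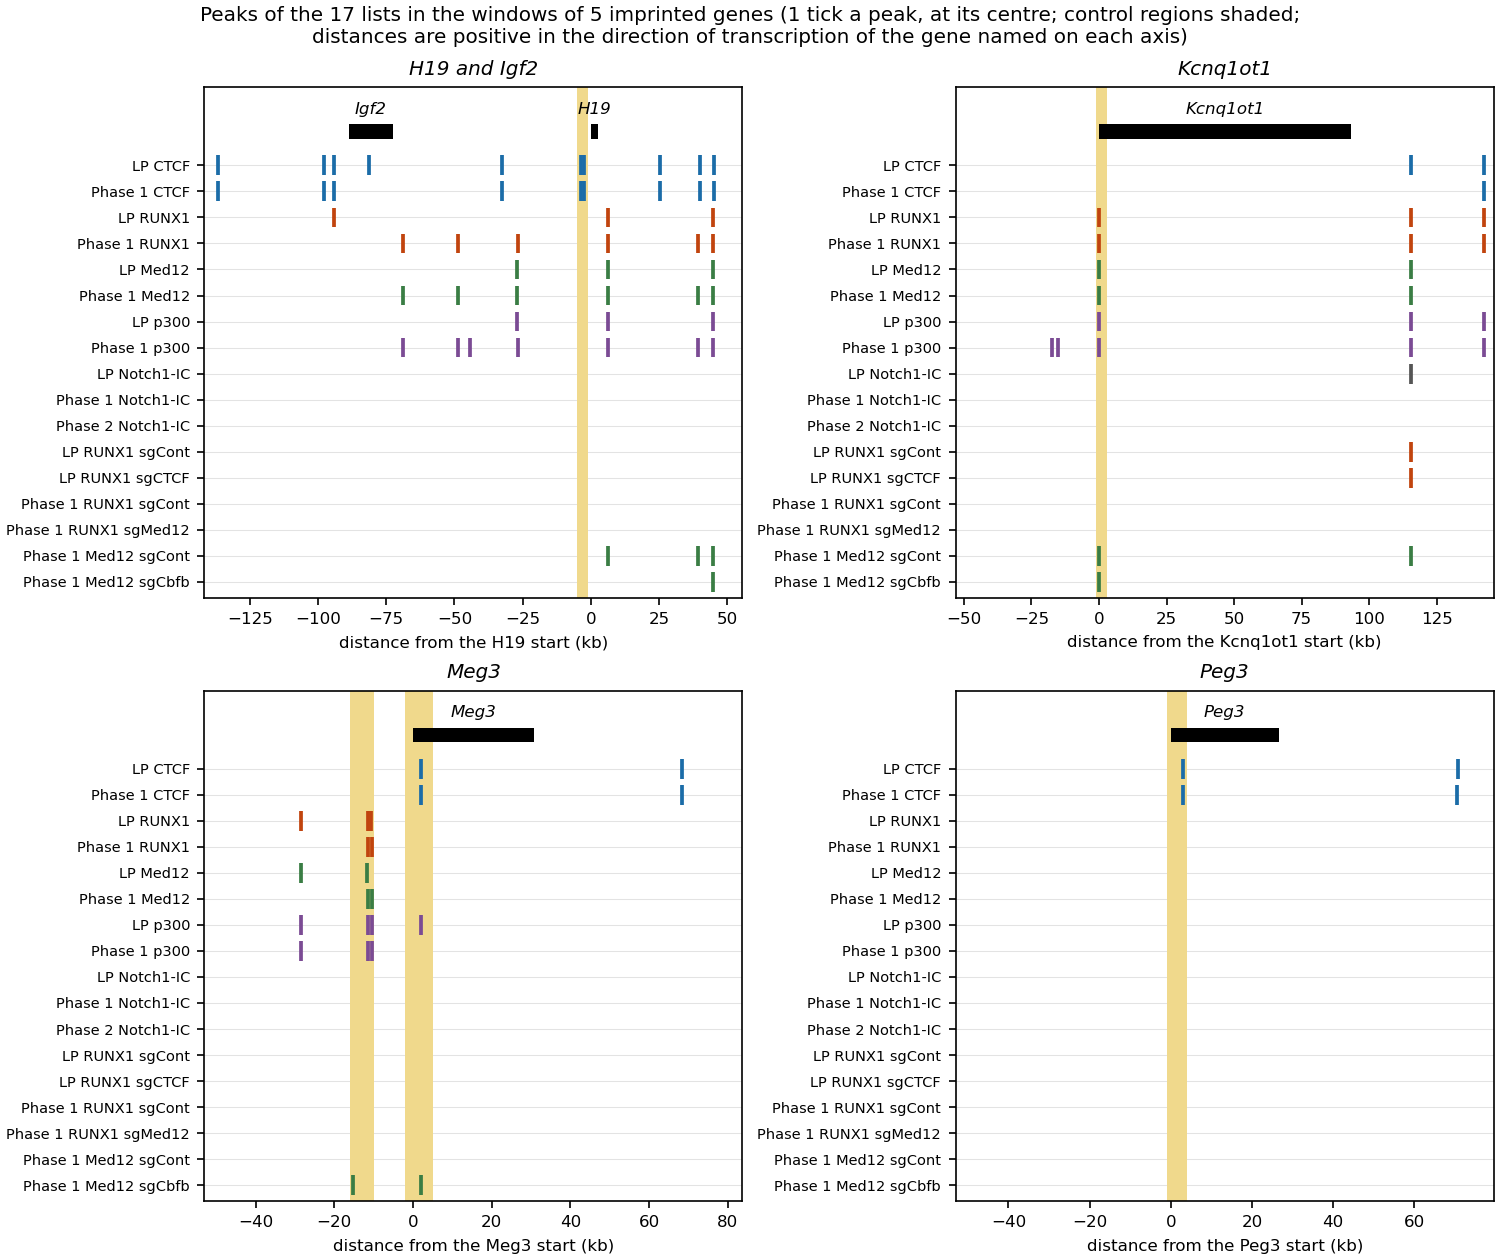
Each tick is the centre of 1 peak, rows are the 17 lists, the horizontal axis is distance from the gene start in kb, black bars are gene bodies and shading marks control regions. CTCF ticks fall in the shaded regions of H19, Meg3 and Peg3 and are missing from those at the Kcnq1ot1 start and upstream of Meg3, and the added Phase 1 ticks of RUNX1, Med12 and p300 lie mostly in the H19 and Igf2 panel.

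CTCF was at 16 of the 29 sites, and nearly all of its peaks were listed in both stages. There were 16 CTCF peaks in LP cells and 14 in Phase 1 cells, or 24.9 and 21.8 per Mb of window against 16.6 and 16.4 per Mb of the named chromosomes. In LP cells 14 of 16 (87.5%, interval 64.0 to 96.5) overlapped a Phase 1 CTCF peak, where the share over the whole list was 90.5%. In Phase 1 cells all 14 overlapped an LP CTCF peak (interval 78.5 to 100), against 91.7% of that list. Both shares are near those of the whole lists.

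Most of the CTCF peaks belonged to H19 and Igf2, 10 in LP cells (52.3 per Mb) and 9 in Phase 1 cells (47.0 per Mb). The other loci were under the values of the named chromosomes. Kcnq1ot1 had 10.4 per Mb in LP and 5.18 in Phase 1 cells, and Meg3 had 15.3 and Peg3 15.8 in both stages. There were 6 CTCF peaks within 50 kb of the H19 start in each stage, where the median over 30751 genes was 3 and 25% of genes had at least as many in LP cells. Igf2 had 4 in LP cells and 3 in Phase 1 cells, Meg3 and Peg3 had 1 each in both stages, and Kcnq1ot1 had 0, as did 20.5% of genes. The highest CTCF scores of the locus lay beyond H19, at the ribosomal protein gene Mrpl23. The peak in its last intron scored 231.7 in LP cells (top 6.99%) and 273.9 in Phase 1 cells (top 5.71%), and the peak at its promoter 194.6 (top 12.8%) and 267.6 (top 6.18%). In Phase 1 cells the next highest was the peak at -5.5 kb from the Igf2 start, with 201.7 (top 14.0%), after 149.4 (top 22.6%) in LP cells.

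The matches below lie under these 3 peaks and under the highest CTCF peak of the Kcnq1ot1 window, and are printed as examples of CTCF words outside the control regions.
Mrpl23 last intron, chr7:142538098-142538117, plus strand: caggCCGCTAGATGGCagtc
Mrpl23 promoter, chr7:142533156-142533175, plus strand: ctgaCCAGGAGGTGCGgctg
Igf2 upstream, chr7:142672322-142672341, minus strand: atgaCCACCAGATGTCaagc
Kcnq1 second intron, chr7:143153991-143154010, plus strand: ggagACACCAGGTGGCgctc
The Kcnq1 peak named last scored 215.8 in LP cells (top 9.18%) and 239.9 in Phase 1 cells (top 8.81%), the highest CTCF scores of the Kcnq1ot1 window, 142.5 kb after the Kcnq1ot1 start. The other CTCF peak of the Meg3 window, in an intron of Rian, scored 53 (top 56.7%) in LP cells and 26.8 (top 81.6%) in Phase 1 cells.

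Only 2 CTCF peaks had no partner in the other stage, and both were listed in LP cells with low scores. The first, named after its values were seen, scored 21.4 (top 87.8%) and lay in an exon of Igf2, 7.4 kb after the gene start. The authors' list annotates that place as a promoter. The second scored 25.8 (top 81.2%) and lay at the Kcnq1 intron site described below. By score, 8 of the 10 LP peaks and 8 of the 9 Phase 1 peaks at H19 and Igf2 stood above the median of their list, 1 of 2 and 0 of 2 at Meg3, and 0 of 2 at Peg3 in both stages. Of the 14 CTCF peaks in both stages, 10 stood higher in the Phase 1 list than in the LP list (interval 45.4 to 88.3), a change of place that 45.7% of all shared CTCF peaks made. The 4 that did not include both peaks of the Meg3 window and the Peg3-DMR peak.

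**Figure D3:**
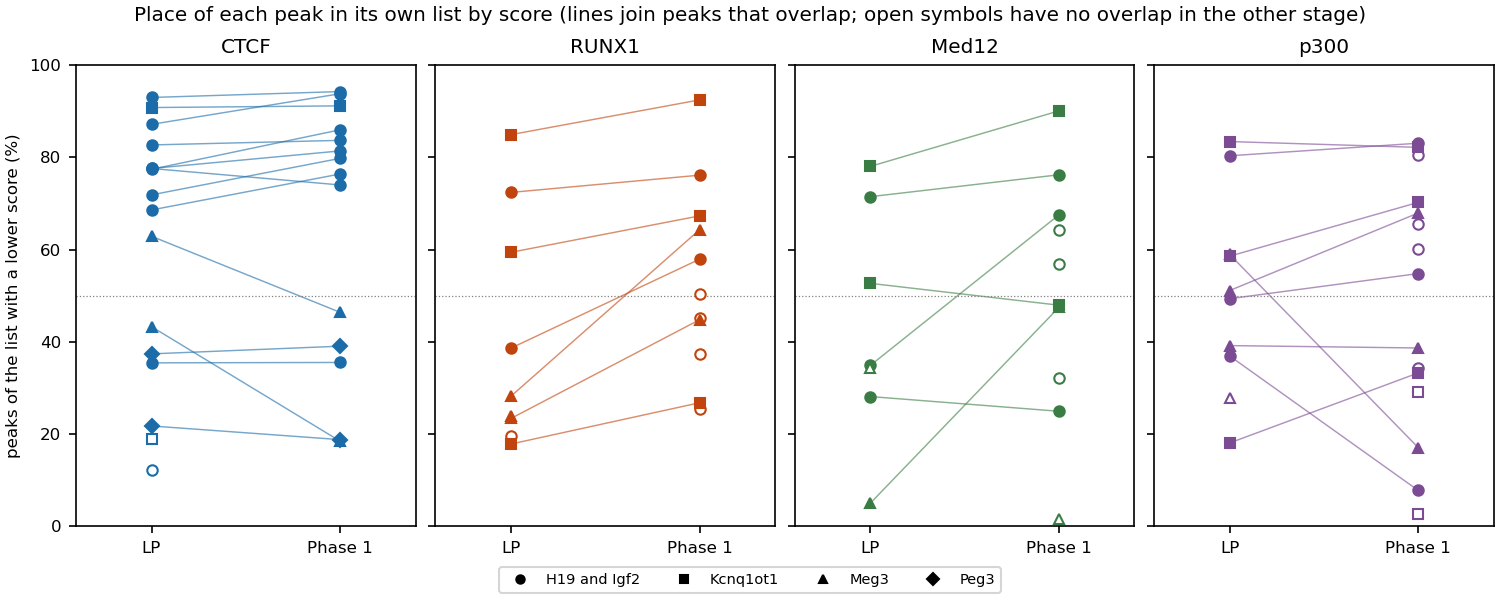
For each factor, the vertical axis is the percentage of peaks in the same list with a lower score, LP on the left and Phase 1 on the right; lines join peaks that overlap, open symbols have no overlap in the other stage, and symbol shape gives the locus. CTCF peaks of H19 and Igf2 cluster in the upper part of both lists, and all 7 RUNX1 lines slope upwards.

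Fewer of the LP peaks at these loci than of all LP CTCF peaks had a high-scoring CTCF word, at the threshold used here. A best matrix match over the score that 1% of flanking windows reach was found in 4 of 16 LP peaks (25%, interval 10.2 to 49.5), against 61.0% of all LP CTCF peaks. In Phase 1 cells it was found in 5 of 14 (35.7%, interval 16.3 to 61.2), against 61.2% of all. The LP peaks over that score were the Mrpl23 intron peak, the Kcnq1 peak at 142.5 kb, the Meg3-DMR peak and 1 peak upstream of Igf2. That last peak lay at -9.1 kb from the Igf2 start, and its word is not printed. The printed words of the Mrpl23 promoter and of the Igf2 upstream peak scored 10.4 and 13.4, under that score. The gap shrank at lower thresholds: with repeats masked in the flanking windows 10 of 16 LP peaks passed (62.5%) against 76.6% of the peaks outside the loci, and at the score of 10% of flanking windows 15 of 16 passed against 90.6%. The member that stayed below was the Zim2 intron peak of the Peg3 window.

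**Figure D4:**
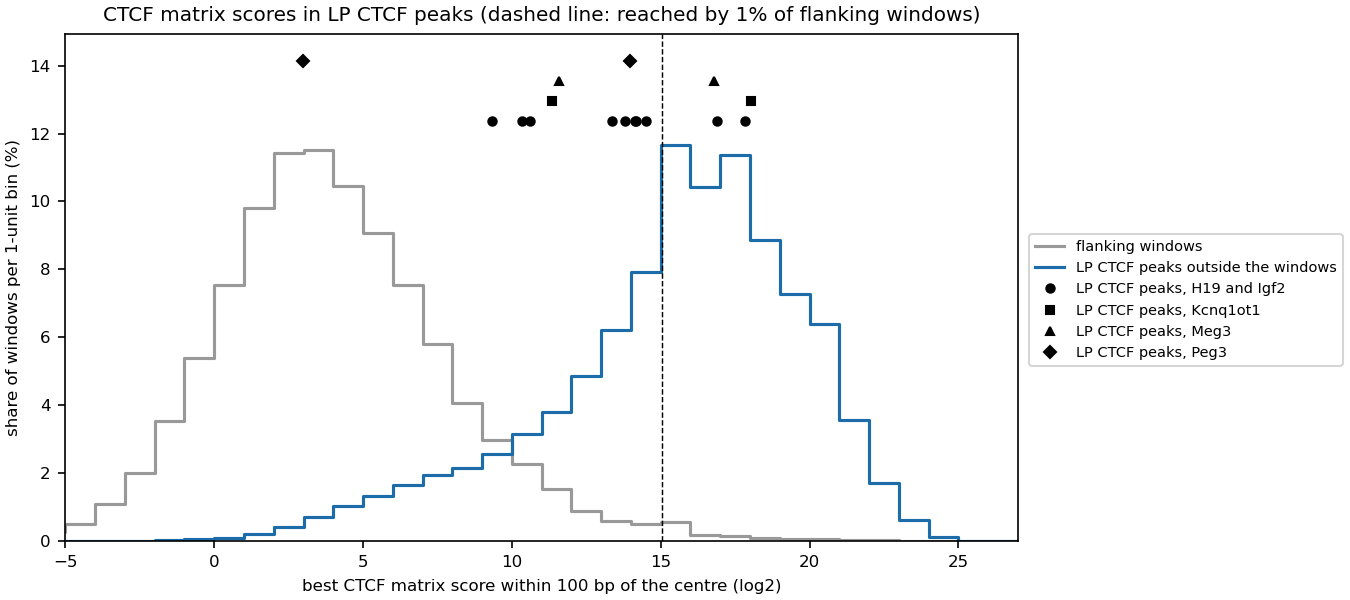
Distribution of the best CTCF matrix score (log2) within 100 bp of the centre, in percent of windows per bin, for flanking windows and for LP CTCF peaks outside the loci, with each LP CTCF peak of the loci as a symbol above. Of the 16 symbols 4 lie right of the dashed line, and the H19 and Igf2 symbols spread from 9.34 to 17.8.

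RUNX1, the DNA-binding factor whose redeployment on Notch stimulation the study set out to follow, had 9 peaks in LP cells and 11 in Phase 1 cells. Of the LP peaks 7 were also in Phase 1 cells (77.8%, interval 45.3 to 93.7, against 83.2% of the list), and of the Phase 1 peaks 7 were also in LP cells (63.6%, interval 35.4 to 84.8, against 69.3%). Both intervals contain the share of the whole list. All 7 that were in both stages stood higher in the Phase 1 list than in the LP list (interval 64.6 to 100), against 61.8% of all shared RUNX1 peaks. That share lies just under the interval, but with so few peaks, several factors compared and no test run, it is a description only.

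The 4 RUNX1 peaks found only in Phase 1 cells all lay at H19 and Igf2. The peak in the Mrpl23 last intron scored 39.0 (top 54.9%), and the peak at -26.9 kb from the H19 start scored 32.4 (top 62.7%). The peak at -48.6 kb scored 44.3 (top 49.7%), and the peak 19.9 kb after the Igf2 start scored 24.9 (top 74.7%). Each overlapped a Med12 and a p300 peak of Phase 1 cells, and at 3 of the 4, all but the one at -26.9 kb, neither Med12 nor p300 had a peak in LP cells. The p300 peak at -48.6 kb was the highest of these, with a score of 110.9 (top 19.4% of the Phase 1 list). Such overlaps were not counted over all RUNX1 peaks found only in Phase 1 cells, so they are a description and not a trait of this locus. Together the locus went from 3 to 6 peaks for RUNX1, from 3 to 6 for Med12 and from 3 to 7 for p300, while the whole lists grew from 31995 to 38399, from 30020 to 39132 and from 36182 to 49116.

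Both RUNX1 peaks found only in LP cells had low scores. The one at -5.6 kb from the Igf2 start scored 23.4 (top 80.4%) and overlapped the CTCF peak printed above, which was in both stages. The one at -28.4 kb from the Meg3 start scored 25.8 (top 76.1%), with LP Med12 at 33.6 (top 65.6%) and p300 at 70.2 (top 41.1%) in LP and 21.2 (top 83.0%) in Phase 1 cells, and with no CTCF. In LP cells 4 of 9 RUNX1 peaks overlapped CTCF (44.4%, interval 18.9 to 73.3, against 23.2% of the list), and in Phase 1 cells 2 of 11 did (18.2%, interval 5.14 to 47.7, against 15.7%). The 4 LP overlaps were at the Mrpl23 promoter, upstream of Igf2 and at both Kcnq1 intron sites, and the 2 in Phase 1 cells were at the Mrpl23 promoter and the Kcnq1 site at 142.5 kb.

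From the side of CTCF, 5 of 16 LP peaks overlapped RUNX1, Med12 or p300 (31.3%, interval 14.2 to 55.6, against 20.9% of the list) and 2 of 14 Phase 1 peaks did (14.3%, interval 4.01 to 39.9, against 18.5%). Over all lists, 11 of the 29 sites held CTCF alone and 13 held no CTCF. RUNX1, Med12 and p300 were together at 11 sites, and no site held RUNX1 alone. Sites were not merged over the whole lists, so these site counts have no share to be set against. Both intervals of the CTCF overlaps contain the shares of the whole lists.

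The short word TGTGGT, the core that RUNX proteins bind, was searched on both strands within 100 bp of each RUNX1 centre. It was present in 4 of 9 LP peaks (44.4%, interval 18.9 to 73.3, against 36.7% of all LP RUNX1 peaks) and 6 of 11 Phase 1 peaks (54.5%, interval 28.0 to 78.7, against 42.6%), and in 15.9% and 15.7% of flanking windows. The sequences below, with the word in capitals, come from a control region, from Phase 1-specific sites and from a site shared with CTCF.
IG-DMR at -11.5 kb, chr12:109529498-109529517, minus strand: caagggtTGTGGTcaacaaa
H19 upstream at -48.6 kb, chr7:142626813-142626832, minus strand: acattctTGTGGTcatctct
Mrpl23 last intron, chr7:142538877-142538896, minus strand: agaaaaaTGTGGTcgcccac
Igf2 downstream, chr7:142646864-142646883, minus strand: aacagttTGTGGTttgtgac
Kcnq1 second intron at 142.5 kb, chr7:143154065-143154084, minus strand: cgcgggcTGTGGTttgggct
The 3 RUNX1 peaks with the highest scores, at the Kcnq1 site described next, the Mrpl23 promoter and the Kcnq1ot1 start, had no copy of these letters in that window in either stage.

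Med12, part of the Mediator complex that links enhancers to RNA polymerase, and p300, which acetylates histones at active enhancers, had 10 and 15 peaks in Phase 1 cells. Of the 7 LP Med12 peaks 6 were also in Phase 1 cells (85.7%, interval 48.7 to 97.4, against 80.5% of the list), and of the 10 Phase 1 peaks 6 were also in LP cells (60.0%, interval 31.3 to 83.2, against 61.8%). For p300 the counts were 9 of 10 (90.0%, interval 59.6 to 98.2, against 79.3%) and 9 of 15 (60.0%, interval 35.7 to 80.2, against 58.4%). Of the shared peaks, 4 of 6 for Med12 (interval 30.0 to 90.3) and 5 of 9 for p300 (interval 26.7 to 81.1) stood higher in the Phase 1 list, against 59.0% and 64.4% of all shared peaks. The Phase 1 p300 peaks without any other factor were 3, with scores from 15.7 to 30.8, and none was in a control region.

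A site in the second intron of Kcnq1, 115.6 kb after the Kcnq1ot1 start, was listed more often than any other, in 11 of the 17 lists. RUNX1 scored 124.9 there in LP cells (top 15.1%) and 179.5 in Phase 1 cells (top 7.52%), the highest RUNX1 scores of the loci. Med12 scored 100.8 (top 22%) and then 122.2 (top 9.90%), and p300 scored 146.0 (top 16.6%) and then 117.9 (top 17.8%). It also held the only Notch1-IC peak of the loci, in LP cells, with a score of 24.2 (top 33.9% of 1585 peaks). None of the 152 Phase 1 or 352 Phase 2 Notch1-IC peaks lay in any window. The LP peak is 0.0631% of its list, while counts of 0 in the shorter lists allow up to 1.97% and 0.852%. No difference between stages can be read from these counts.

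The guide lists added 11 peaks at these loci. RUNX1 in LP cells was listed at the same Kcnq1 site with sgCont, at 19.8 (top 83.5%), and with sgCTCF, at 18.2 (top 91.2%). It was listed at no other place in the windows, in lists of 975 and 874 peaks. RUNX1 in Phase 1 cells had no peak in the windows with sgCont or with sgMed12, in lists of 1550 and 2094 peaks. Counts of 0 in these lists allow up to 0.194% and 0.143%. Med12 had 5 peaks with sgCont and 4 with sgCbfb.

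Of the 5 Med12 peaks with sgCont, 2 overlapped an sgCbfb peak (40.0%, interval 11.8 to 76.9, against 67.8% of the list), and of the 4 with sgCbfb 2 overlapped an sgCont peak (50.0%, interval 15 to 85, against 71.4%). The 2 in both lists were at the Mrpl23 promoter, with scores of 28.1 and 37.2, and at the Kcnq1ot1 start. Those listed with sgCont and not with sgCbfb were the Kcnq1 site, at 31.4 (top 57.0%), the Mrpl23 last intron, at 17 (top 92.4%), and a site 6.3 kb after the H19 start, at 15.8 (top 96.6%). The scores of 17 and 15.8 are close to the score minimum of 15. All 5 sgCont peaks, those kept as well as those not, overlapped a RUNX1 peak of unmodified Phase 1 cells. That overlap was not counted over the whole sgCont list, so it is a description and not a trait of these loci. Those listed with sgCbfb and not with sgCont were the 2 Meg3 peaks at -15.2 and 2.0 kb, and neither had RUNX1 in any list. With 5 and 4 peaks from lists described as noisier, no difference between the guides was tested.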

How the data were processed

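The authors aligned ChIP-seq reads to mm10 with Bowtie 1.1.1, found peaks with HOMER (factor style, matched control) and retained those reproducible across 2 replicates in an irreproducible discovery rate analysis. Each deposited list gives, for each peak, the authors' normalized peak score (at least 15) and a focus ratio, a fraction that the authors' caller wrote and that enters no result here. The 4 input samples have no list. The submitters' processing notes also name bcl2fastq 1.8.4. Read depth per sample was not used here.

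Windows used GENCODE vM21 gene bodies. Overlap meant at least 1 bp. The named peaks were those in a control region, RUNX1, Notch1-IC and guide-list peaks, and the 3 highest CTCF, Med12 or p300 peaks of a locus in either stage. The CTCF matrix was learned from repeat-masked sequence within 100 bp of LP CTCF centres outside the windows in 3 rounds, and peaks were then scanned unmasked. Thresholds came from windows 2 kb to each side. Python 3.11.15, numpy 2.4.6, pandas 2.3.3 and pysam 0.24.0 were used, and functions were tested on simulated data. Sequences are from GRCm38.p6, the reference assembly of mm10. No test was run, since lists hold no replicate values. The members and lists were chosen with earlier results of these data known.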

Additional observations from a re-analysis of the deposited data

How the results depend on the processing

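No paired analysis was possible because each list combines both replicates, and for the same reason no replicate could be left out. Of the recomputed values, 46 stayed within 1.5 times or within their interval and 21 did not. A window of 25 kb left 64 peaks and one of 100 kb gave 180, in place of 104. With 25 kb, all LP Med12 peaks (100%, 4 of 4) were in Phase 1 cells, the LP-specific RUNX1 peaks fell to 1 and the Phase 1-specific ones to 2, and RUNX1 overlapped CTCF at 2 peaks in LP and 0 in Phase 1 cells. With 100 kb, Phase 1-specific RUNX1 peaks were 7 and Phase 1 RUNX1 peaks with CTCF 6. With a score of at least 30, LP-specific RUNX1 peaks were 0, and 1 RUNX1 peak overlapped CTCF in each stage. With an overlap of 50% of each peak, 1 Phase 1 RUNX1 peak overlapped CTCF. The share of CTCF peaks with a matrix match was 0% in both stages (0 of 16 and 0 of 14) at the score of 0.1% of flanking windows and with the CTCF consensus string, which 11.3% and 16.6% of peaks outside the loci held in both stages. Under 2 thresholds added after the data were seen, it was 62.5% in LP and 64.3% in Phase 1 cells with repeats masked in the flanking windows, and 93.8% and 92.9% at the score of 10% of flanking windows. With a score of at least 30, the Peg3-DMR peak was lost and 2 control regions kept CTCF in each stage. A factor or guide with no peak here had none that passed the authors' score minimum, which is not absence of binding.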

Other observations

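Other imprinted genes were counted in the same way. Of 36 further imprinted genes, 29 had a window apart from those above, and 26 of the 29 held a CTCF peak in LP cells and 28 in Phase 1 cells. Over 30751 genes with windows drawn in the same way, 82.8% held CTCF in LP cells and 82.7% in Phase 1 cells, against 89.7% (95% Wilson interval 73.6 to 96.4) and 96.6% (interval 82.8 to 99.4) of the 29. Some of the 29 windows overlap and share peaks, so they are not independent and intervals over the 29 are too narrow. Counted once, 73 of their 84 LP CTCF peaks (86.9%, interval 78.1 to 92.5) were also in Phase 1 cells, and 73 of their 83 Phase 1 peaks (88.0%, interval 79.2 to 93.3) were also in LP cells. A RUNX1 peak was in 19 of the 29 windows in LP cells (65.5%, interval 47.3 to 80.1, against 69.7% of all genes) and in 25 in Phase 1 cells (86.2%, interval 69.4 to 94.5, against 73.2%). A Med12 peak was in 19 and 25, against 69.3% and 74.6% of all genes, and a p300 peak in 21 and 26, against 71.3% and 77.2%. Both RUNX1 intervals contain the shares of all genes. Windows without RUNX1, Med12 or p300 in either stage were 2 of the 29, and 1 of these held CTCF in both stages, as the Peg3 window did.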
